A study of Homo sapiens with 12 samples.

Results

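The cytosolic ribosomal proteins were followed at the RNA level in human neuroblastoma cultures. Members were the protein-coding genes on chromosomes 1 to 22 or X named RPL or RPS with a number, together with RPLP0, RPLP1, RPLP2 and RPSA. They numbered 84 of 58735 genes in the table. There were 77 core proteins, of which 46 belong to the large subunit and 31 to the small subunit. A further 4 were variant paralogs (RPL3L, RPL39L, RPL22L1 and RPS27L), and 3 were other like-named paralogs that the same naming pattern takes (RPL7L1, RPL10L and RPL26L1). All 77 core genes passed the filter on low values (a mean of at least 0.5 FPKM, which is fragments per kilobase of exon scaled for sequencing depth, over all libraries), and RPL3L and RPL10L did not. The labels give 4 groups of 3 libraries: SK-N-SH cells titled shL5 with the genotype TSPYL5 knockdown, SK-N-SH cells titled shNC with the genotype WT (called the control here), and the same pair in a second line. That line is titled SK_N_BE2 but carries the cell line label SH-SY5Y, and it is named the second line in what follows. No treatment was given, and the labels do not say whether a culture was 1 clone, nor whether libraries of a group came from separate cultures, so p-values measure the spread between these libraries only.

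Ribosomal proteins assemble with ribosomal RNA into the large and small ribosomal subunits, and in the usual view each ribosome carries 1 copy of most of them. Their mRNAs are among the most abundant in dividing cells. Most start with a cytosine followed by a run of pyrimidines, the 5′ terminal oligopyrimidine (TOP) motif, through which mTOR signalling and the RNA-binding protein LARP1 control their translation together. A few proteins have paralogs that are made in particular tissues: RPL3L in striated muscle, RPL39L and RPL10L in testis. In mouse cells RPL22 holds down the RNA of its paralog RPL22L1.

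The starts of genes in the paralog results are shown so that parent and paralog can be compared, with RPL39 printed without its paralog RPL39L. Also shown are the core gene that rose most (RPS7) and the one that fell most (RPL28) in the SK-N-SH knockdown. Each line gives 40 bases before and 20 bases from the annotated start, from RefSeq on GRCh38.p14, with the unbroken pyrimidine run nearest the start in capitals.
RPL22, chr1:6199576-6199635, minus strand: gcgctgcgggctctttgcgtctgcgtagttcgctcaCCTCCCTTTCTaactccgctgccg
RPL22L1, chr3:170870176-170870235, minus strand: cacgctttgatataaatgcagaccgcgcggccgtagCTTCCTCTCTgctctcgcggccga
RPS27, chr1:153990722-153990781, plus strand: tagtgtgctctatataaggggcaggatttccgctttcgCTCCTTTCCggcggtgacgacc
RPS27L, chr15:63157458-63157517, minus strand: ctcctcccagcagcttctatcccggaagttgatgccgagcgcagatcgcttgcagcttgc
RPL39, chrX:119791611-119791670, minus strand: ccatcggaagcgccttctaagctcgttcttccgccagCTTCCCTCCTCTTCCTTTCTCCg
RPL26, chr17:8383174-8383233, minus strand: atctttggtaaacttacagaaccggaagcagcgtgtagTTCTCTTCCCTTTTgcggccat
RPL26L1, chr5:172958689-172958748, plus strand: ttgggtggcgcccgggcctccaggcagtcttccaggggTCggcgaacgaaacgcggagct
RPS7, chr2:3575220-3575279, plus strand: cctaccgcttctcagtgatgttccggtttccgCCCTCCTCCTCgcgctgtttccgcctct
RPL28, chr19:55385892-55385951, plus strand: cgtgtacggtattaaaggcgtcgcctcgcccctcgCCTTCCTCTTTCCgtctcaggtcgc
RPL22 and RPL22L1 both had a run of at least 8 pyrimidines at the start (11 and 10 bases), whereas RPS27L and RPL26L1 did not, unlike their parents RPS27 (9 bases) and RPL26 (14 bases). RefSeq windows matched 67 of the 84 members. Of the 77 windows of 62 core genes, 51 (66.2%) held such a run, against 10.5% of all 35116 windows in the table. The median run was 10 bases in core windows and 3 in all windows. RPS7 and RPL28, which moved in opposite directions, both carried a run. The letters CCGGAA, the core of the ETS factor motif read on either strand, stood in 40 of 77 core windows (51.9%) and in 17.2% of all windows, where a window reached from 250 bases before to 50 bases after the start. CTCGCGAGA was found in 9.09% of core windows and 0.686% of all windows, and the E-box CACGTG in 5.19% of core windows and 7.26% of all windows. These matches are descriptions of letters and do not show that a factor was bound.

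The libraries held 15425460 to 19249018 reads assigned to genes. TSPYL5 ran counter to the SK-N-SH labels, at 17.1, 18.3 and 17.8 FPKM in the libraries labelled knockdown, against 13.1, 13.4 and 12.2 FPKM in those labelled control. It was lower in the second line's knockdown, at 13.3, 12.4 and 12.6 FPKM, against 24, 24.4 and 25.8 FPKM in the control. The groups also crossed by cell state markers. Summed over 7 noradrenergic neuroblastoma genes, the level was 847 to 900 FPKM in SK-N-SH knockdown libraries and 81.0 to 93.6 FPKM in SK-N-SH control libraries, with TH at 0 in the control. It was 66.2 to 82.9 FPKM in the second line's knockdown, with TH at 0, and 948 to 986 FPKM in its control. Summed over 4 mesenchymal genes the order was the other way, at 103 to 110 FPKM in SK-N-SH knockdown and 688 to 709 FPKM in SK-N-SH control, and at 636 to 712 FPKM in the second line's knockdown and 90.4 to 93.8 FPKM in its control. All 11 of these genes passed the test within each line, in the direction of the sums. PTPRC, EPCAM and PECAM1, which mark other cell types, summed to 1.81 to 2.001 FPKM in SK-N-SH knockdown and 0.290 to 0.486 FPKM in SK-N-SH control, and to 0.229 to 0.623 FPKM in the second line's knockdown and 1.45 to 1.65 FPKM in its control. PECAM1 was at 0 in SK-N-SH knockdown and in the second line's control, and 1 of the 3 genes was tested. All results below are therefore by label only, and whether a difference goes with the knockdown or with the identity of the cells cannot be told apart.

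Reads on the ribosomal protein genes made up 8.06%, 8.66% and 9.26% of all reads in SK-N-SH knockdown libraries, against 6.53%, 6.10% and 6.46% in SK-N-SH control libraries. The share in the second line was 5.85%, 4.73% and 5.21% in knockdown libraries, against 7.92%, 8.60% and 7.90% in control libraries. The groups of each line did not overlap, and the 2 lines moved in opposite directions. The difference was 2.30 percentage points in SK-N-SH and -2.88 percentage points in the second line. An exact two-sided permutation test gave p = 0.1 for each, which is the smallest value that 3 libraries against 3 allow. The SK-N-SH knockdown and the control of the second line averaged 8.66% ± 0.60 and 8.14% ± 0.40 and overlapped (SD, n = 3, exact p = 0.2). The second line's knockdown averaged 5.26% ± 0.56 and was below the SK-N-SH control, at 6.36% ± 0.23, without overlap (SD, n = 3, exact p = 0.1). The share of reads on mitochondrial genes was also higher in the SK-N-SH knockdown, at 7.59% ± 0.58, than in its control, at 6.47% ± 0.20, and in the second line it was 7.15% ± 0.38 in knockdown and 7.40% ± 0.32 in control (SD, n = 3, exact p = 0.1 and 0.6). Its part in the ribosomal protein shares was not tested. In bulk RNA, fewer cells of a type and less RNA per cell cannot be told apart.

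**Figure D1:**
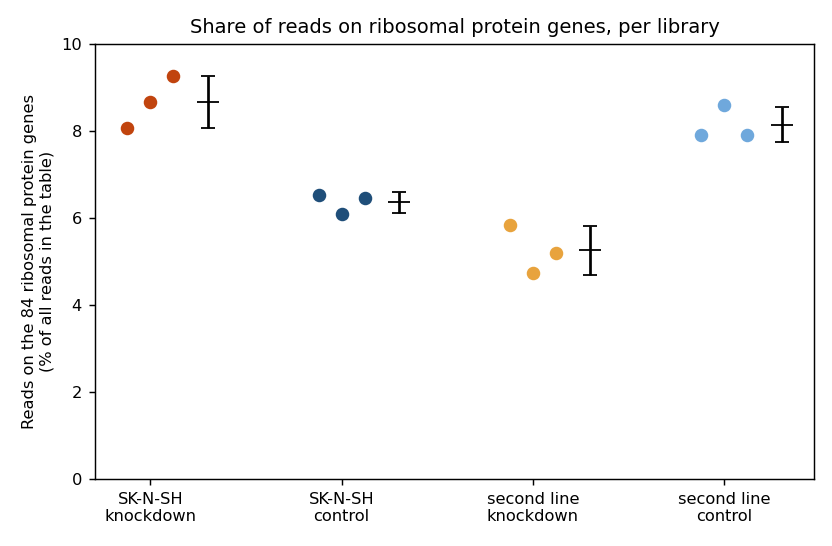
Percent of all reads that fell on the 84 ribosomal protein genes, per library (points), with the mean and SD of each group of 3 (bar). The SK-N-SH knockdown and the second line's control lie between 7.90% and 9.26%, and the other groups between 4.73% and 6.53%.

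Levels differed widely among the core genes. In FPKM, which is per length of the union of annotated exons, the median core gene stood at 275 FPKM in SK-N-SH knockdown, 225 FPKM in SK-N-SH control, 202 FPKM in the second line's knockdown and 261 FPKM in its control. RPS27 was the highest core gene in all 4 groups, at 1404, 1472, 1329 and 1341 FPKM in that order. It was followed by mean level over all libraries by RPL41, the smallest ribosomal protein, then RPS2, RPS12 and RPL13A. Among the lowest were RPS10, RPL36A, RPL17 and RPL26. RPS10 had 0.916 ± 0.132 FPKM in SK-N-SH knockdown and 0.557 ± 0.151 FPKM in SK-N-SH control (SD, n = 3), far under its partners in the same subunit. These low values have a limit in the counting: RPS10 shares 39.4% of its exon bases with the readthrough gene RPS10-NUDT3, RPL17 shares 32.7% with RPL17-C18orf32 and other genes on its strand, and RPL36A shares 8.40% with RPL36A-HNRNPH2. RPL26 shares 14.3% with AC135178.2 on its strand. The sources used here do not say how reads on such bases were counted, and the levels of RPS10, RPL17, RPL36A and RPL26 are uncertain.

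In SK-N-SH, most core ribosomal protein RNAs were higher in the knockdown than in the control. Of 77 core genes, 51 were higher and 10 lower at an adjusted p under 0.05 (limma on log2(FPKM + 1), Benjamini-Hochberg over 15856 genes). Among all genes tested, 40.7% were higher and 39.0% lower, 79.8% in either direction. The median core log2 fold change was 0.41, beside 0.02 over all genes tested. By subunit, 30 of 46 large-subunit and 21 of 31 small-subunit genes were higher, and 4 and 6 were lower. The libraries of the 2 groups did not overlap for 51 core genes that were higher and 11 that were lower, where 41.6% of all genes tested were apart and higher and 39.9% apart and lower, 81.5% in either direction. At least a 2-fold change on the log2(FPKM + 1) scale was seen for 7 higher core genes and 1 lower core gene that passed the test, where 15.3% of all genes tested were higher and 15.8% lower by that rule.

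RPS7, a small-subunit protein that can also bind MDM2, rose most. It had 238, 265 and 289 FPKM in SK-N-SH knockdown libraries, against 81.9, 75.6 and 77.5 FPKM in SK-N-SH control libraries. All 3 knockdown libraries lay far above all 3 controls, 3.37-fold by the means, with a log2 fold change of 1.74 (SE 0.087, limma adjusted p = 4.56e-09). RPS15A, a small-subunit protein, followed at 39.2, 51.7 and 50.8 FPKM in knockdown and 18.5, 18 and 17.7 FPKM in control libraries, without overlap (log2 fold change 1.33, limma adjusted p = 5.15e-07). RPS3, which lies at the mRNA entry channel, had 514, 525 and 590.5 FPKM in knockdown and 237, 226 and 233 FPKM in control libraries (log2 fold change 1.22, limma adjusted p = 1.46e-07). RPL22 came next, without overlap, with a log2 fold change of 1.19. RPL28, a large-subunit protein, fell most: it had 41.1, 43.2 and 44.1 FPKM in knockdown libraries, against 111, 106 and 104 FPKM in control libraries. Its knockdown libraries were all below its control libraries, 2.5-fold by the means, with a log2 fold change of -1.30 (SE 0.066, limma adjusted p = 4.87e-09). RPS19, the protein most often mutated in Diamond-Blackfan anaemia, also fell (log2 fold change -0.64), as did RPL15 (-0.57) and RPL13A, a regulator of inflammatory mRNAs when released from the ribosome (-0.43). None of these 8 genes overlapped between the groups.

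In the second line, most core ribosomal protein RNAs were lower in the knockdown than in the control. Of 77 core genes, 50 were lower and 7 higher in the knockdown than in the control, where 40.2% of all genes tested were lower and 39.9% higher, 80.0% in either direction. The median core log2 fold change was -0.45, beside -0.02 over all genes tested. RPS7 again changed most, with 77.5, 64.1 and 72.4 FPKM in knockdown libraries, against 226, 255 and 226 FPKM in control libraries. The fall was 3.3-fold by the means (log2 fold change -1.71, SE 0.087, limma adjusted p = 4.81e-09). RPS3 had 202, 158 and 176 FPKM in knockdown and 514, 509.8 and 453 FPKM in control libraries (log2 fold change -1.46, limma adjusted p = 2.76e-08). RPL10, an X-linked protein that joins late in assembly, had a log2 fold change of -1.07, against 0.91 in SK-N-SH. RPS29, a small-subunit protein, fell with a log2 fold change of -1.26 and RPS15A with -1.18. The rises were smaller. RPL28 had 85.6, 75.7 and 86.6 FPKM in knockdown libraries, against 49.7, 48.9 and 43.4 FPKM in control libraries, and did not overlap (log2 fold change 0.79, limma adjusted p = 3.87e-07). RPS19, RPL29 and RPL15 rose by log2 changes of 0.52, 0.45 and 0.44. With each library scaled to its total reads in place of the authors' size factors, the split moved to 60 lower and 4 higher core genes, where 45.0% of all genes were lower and 35.2% higher, with medians of -0.14 over all genes and -0.62 over the core genes.

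**Figure D2:**
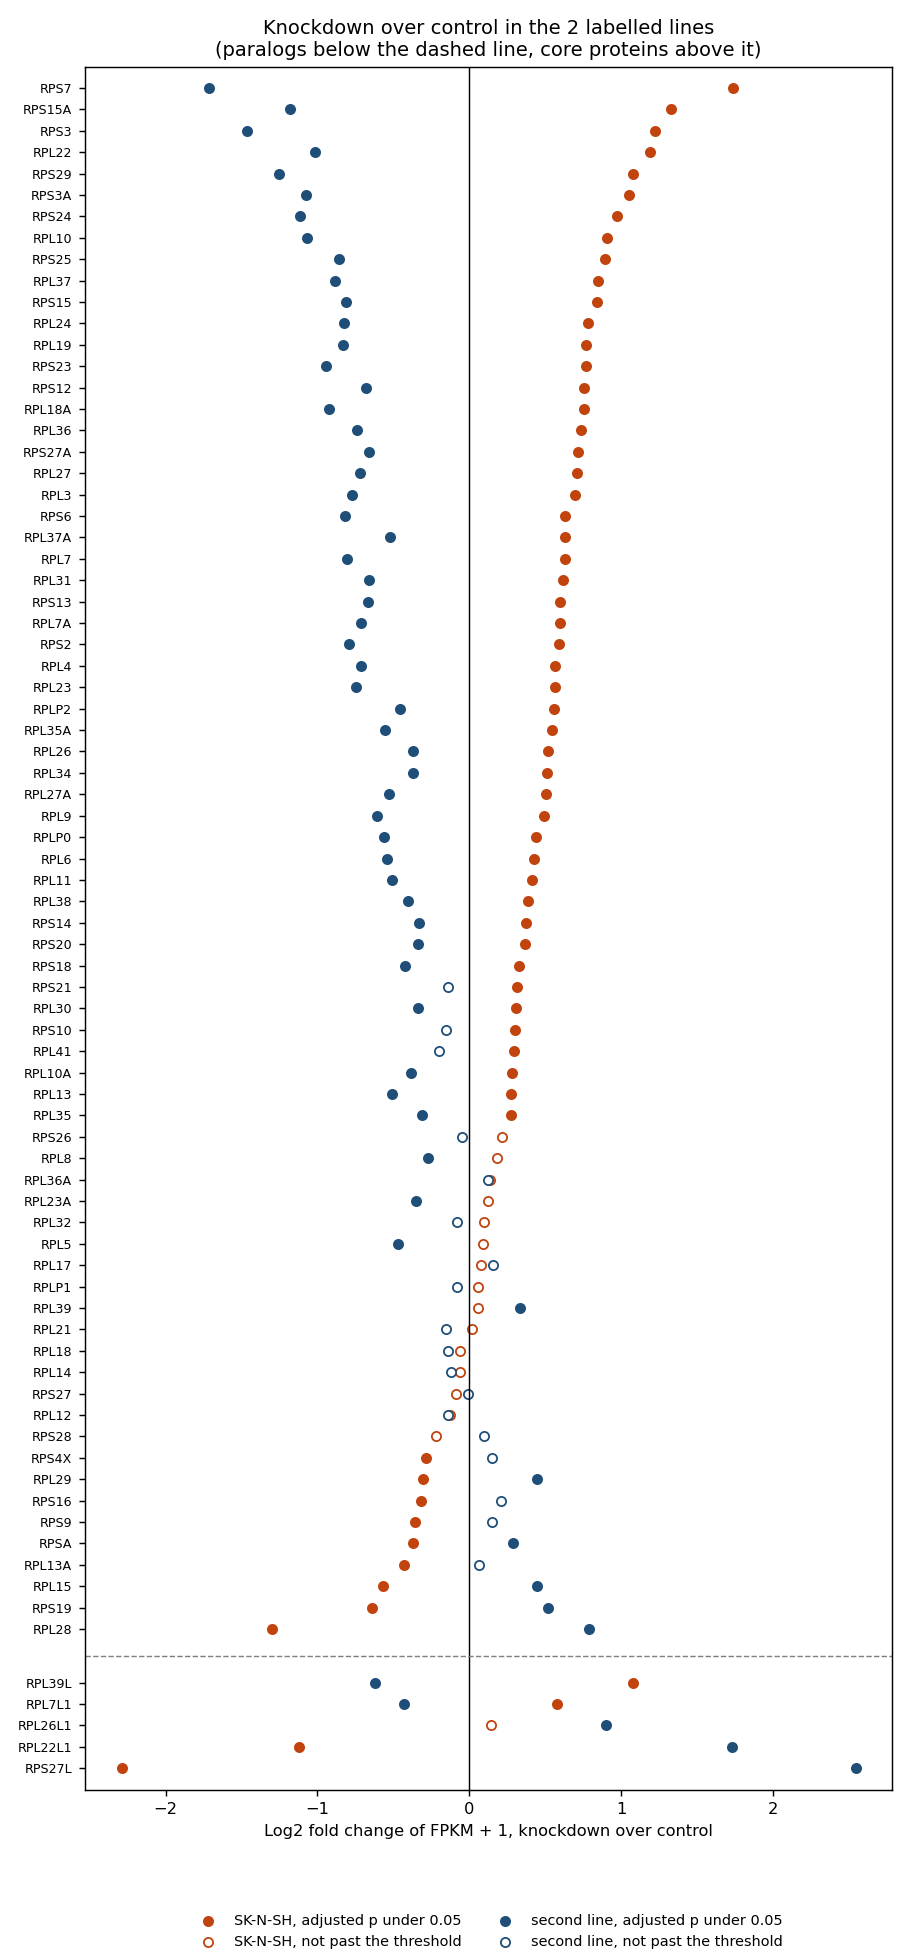
Log2 fold change of FPKM + 1, knockdown over control, for each tested ribosomal protein gene in SK-N-SH (orange) and in the second line (blue), for 73 core genes and 5 paralogs, filled where the limma adjusted p was under 0.05. Core genes are sorted by the SK-N-SH value above the dashed line and paralogs lie below it: 49 of the core genes drawn were higher in the SK-N-SH knockdown, while 49 were lower in the second line's.

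Set side by side, 47 core genes were higher in the SK-N-SH knockdown and lower in the second line's knockdown, and 6 were lower in SK-N-SH and higher in the second line (RPL15, RPL28, RPL29, RPS19 and RPSA among them). Of all genes tested, 35.1% were higher in SK-N-SH and lower in the second line, and 34.2% the other way. The 47 are 47 of the 51 higher in SK-N-SH and 47 of the 50 lower in the second line. No core gene was called in the same direction in both lines, and 1.72% of all genes tested were. The groups crossed by cell state markers, so these opposite calls are by label. They do not show that the lines answered the knockdown in opposite ways. The difference of the labelled knockdown effects, second line minus SK-N-SH, has the same limit and was tested in the same limma fit. It passed for 64 of 77 core genes, 54 with a lower and 10 with a higher effect in the second line. Of all genes tested, 43.1% had a lower and 41.8% a higher effect, 84.9% in either direction. Another 4 were higher in SK-N-SH alone by the single tests (RPL41, RPS10 and RPS21 among them), 4 were lower there alone (RPL13A, RPS16, RPS4X and RPS9), and in the second line alone RPL39 was higher and RPL23A, RPL5 and RPL8 lower. RPL41 and RPS10 lost the SK-N-SH call when a library was left out (adjusted p up to 0.0983 and 0.0555 in limma). RPL41 also lost it with no filter on low values (limma adjusted p = 0.125) and with only the 2 groups compared (0.0591). In the second line RPL41 passed as lower with TPM scaling, total-read scaling and voom (limma adjusted p = 0.00473, 0.00648 and 0.0474). The 12 core genes called in neither line, where 11.2% of all genes tested were called in neither, included RPL12, RPL14, RPL17, RPL18, RPL21, RPL32, RPL36A, RPLP1, RPS26, RPS27 and RPS28. RPS27 had 1136, 1407 and 1669 FPKM in SK-N-SH knockdown libraries and 1547, 1414 and 1456 FPKM in SK-N-SH control libraries, with overlap. Its second line values were 1434, 1207 and 1346 FPKM in knockdown and 1147, 1551 and 1325 FPKM in control libraries, again with overlap.

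Within a group the core genes moved together from library to library. In the SK-N-SH knockdown, replicate 3 was the highest library for 70 of 77 core genes and replicate 1 the lowest for 70. Of the second line's knockdown libraries, replicate 1 was the highest for 70 and replicate 2 the lowest for 75. Among the second line's controls, replicate 2 was the highest for 65, and in the SK-N-SH control, replicate 1 was the highest for 56. The pooled SD of the mean core log2 level within groups was 0.11. The 77 genes are therefore not independent measurements of a group, and a count of genes called is carried by 3 library-wide levels a side.

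**Figure D3:**
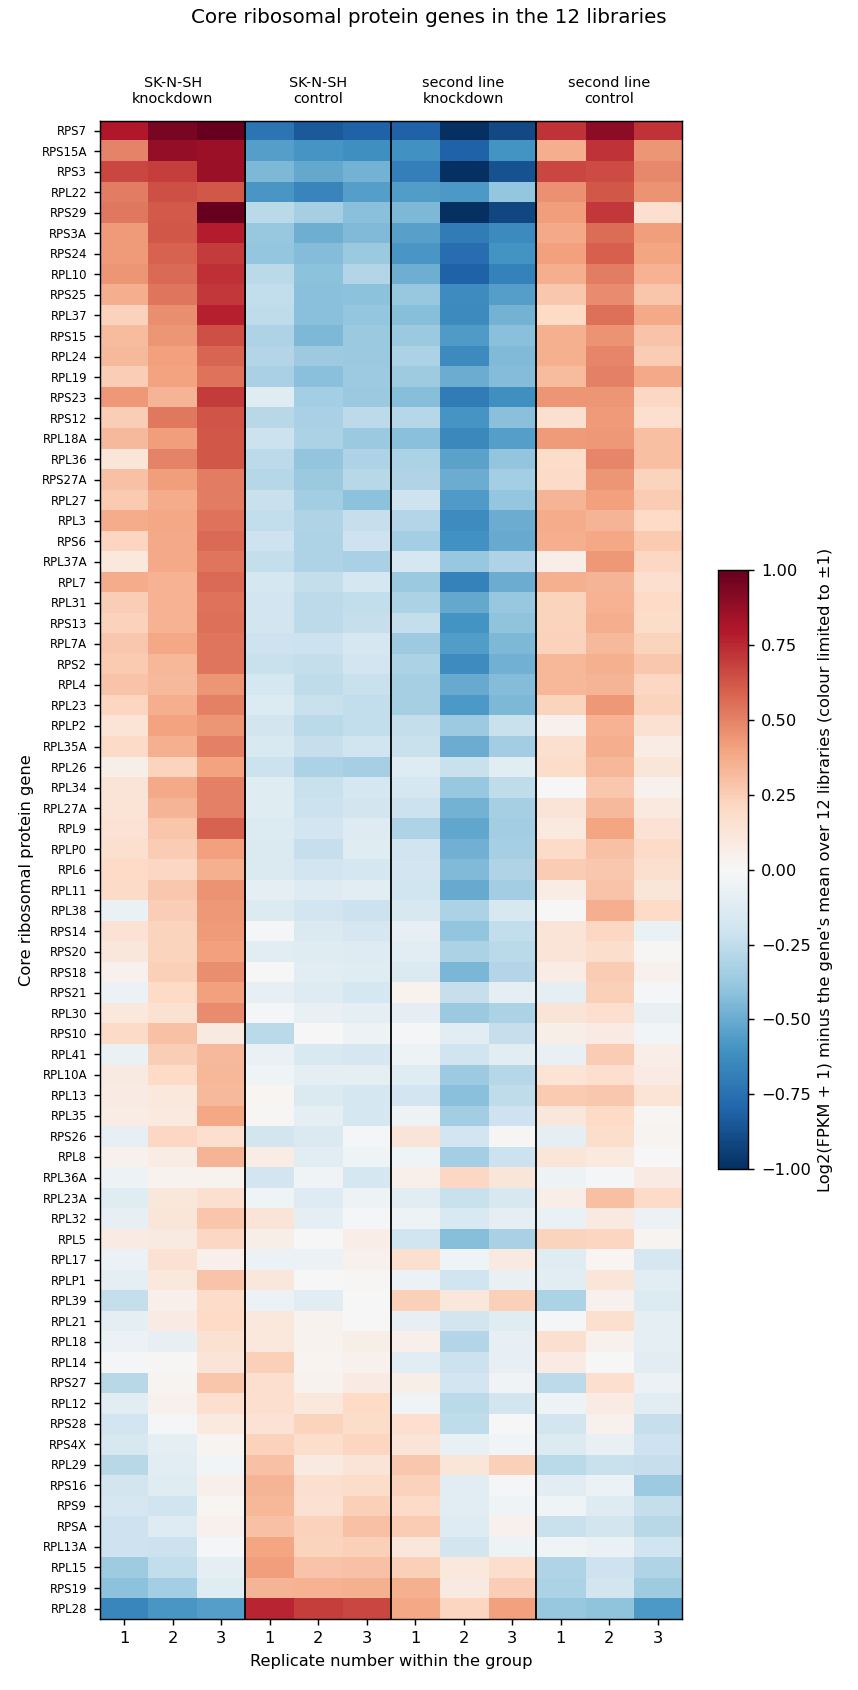
Heat map of log2(FPKM + 1) minus each gene's mean over the 12 libraries, for 73 core genes (rows, sorted by the SK-N-SH fold change) and the 12 libraries (columns, 3 a group). Red is above and blue below the gene's mean. The columns of SK-N-SH knockdown and of the second line's control are red over most of the upper rows, and within a group whole columns are darker or lighter.

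Groups of proteins with a shared role followed the majority in part. RPL5 and RPL11 form the particle that carries the smallest large-subunit ribosomal RNA and that binds MDM2 when assembly fails. RPL11 had 411 ± 38.2 FPKM in SK-N-SH knockdown and 308 ± 4.38 FPKM in SK-N-SH control, and 262 ± 27.7 FPKM in the second line's knockdown and 373 ± 28.8 FPKM in its control (SD, n = 3), and passed in both lines (log2 fold changes 0.41 and -0.51). RPL5 passed in the second line only by its own test (log2 fold change -0.47), with 0.088 in SK-N-SH, and the difference between the lines passed (log2 difference -0.56, limma adjusted p = 0.000334). Of the stalk proteins that recruit elongation factors, RPLP0 and RPLP2 were higher in the SK-N-SH knockdown (log2 fold changes 0.44 and 0.56) and lower in the second line's (-0.56 and -0.45). Their partner RPLP1 passed in neither line, with 0.059 and -0.083. With TPM and total-read scaling, which also lower the median of all genes, RPLP1 passed as lower in the second line (limma adjusted p = 0.0169 and 0.0214). RPS27A, made as a fusion with ubiquitin, changed by 0.72 and -0.66 on the log2 scale in SK-N-SH and in the second line, both past the threshold. RPSA, also known as a laminin receptor, went the other way at -0.37 and 0.29, and its rise in the second line was lost with TPM scaling (limma adjusted p = 0.135) and without replicate 1 of the second line's knockdown (0.0509). Of the Diamond-Blackfan anaemia proteins, RPL35A changed with the majority (0.54 in SK-N-SH, -0.55 in the second line), RPS19 against it, and RPS26 passed in neither line (0.22 and -0.05). RPL10A, a large-subunit protein absent from part of ribosomes in mouse stem cells, changed with the majority at 0.28 and -0.39. X-linked RPS4X was lower in the SK-N-SH knockdown (-0.28) and had a log2 fold change of 0.15 in the second line, which did not pass.

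The SK-N-SH knockdown and the second line's control were also compared across the labelled lines. None of 77 core genes passed the limma test between them, where 2.26% of all genes tested were higher and 3.12% lower, 5.39% in either direction, and 1 core gene had an unadjusted p under 0.05. The voom fit with TMM scaling called 0 as well. The core log2 fold changes ran from -0.14 to 0.31 with a median of 0.09, and the libraries of 3 core genes did not overlap, all of them higher in the SK-N-SH knockdown, where 12.9% of all genes tested were apart and higher and 14.2% apart and lower, 27.0% in either direction. RPS27L had 0.056, RPL22L1 0.22 and RPL39L 0.086, none past the threshold. The second line's knockdown and the SK-N-SH control differed more. Of 77 core genes, 17 were lower in the second line's knockdown and 1 higher, where 17.2% of all genes tested were lower and 26.9% higher, 44.1% in either direction. The median core log2 fold change was -0.16, beside 0.02 over all genes. Among genes that passed and did not overlap, the largest falls were in RPS3 (log2 fold change -0.38), RPL28 (-0.37), RPL5 (-0.36), RPL10 (-0.33) and RPL13A (-0.32), and RPL36A was the gene that was higher (0.26). RPS29 had a larger difference of -0.49, also without overlap, which did not pass (limma adjusted p = 0.0565). This count depended on the scaling and on single libraries. It was 58 lower and 0 higher with TPM scaling, 47 lower and 1 higher with total reads, and 36 lower with the voom fit, where 24.7%, 23.1% and 21.1% of all genes were lower under those settings, and 16.1% and 19.4% were higher with TPM and with total reads. It was 4 lower without replicate 2 of the second line's knockdown, which held the lowest level of 75 core genes, 29 without its replicate 1 and 10 without its replicate 3. It was 7 and 8 lower without replicate 1 and replicate 3 of the SK-N-SH control. The share of all genes that were lower was 13.7% to 16.4% over these 5 repeats. RPL10 and RPL13A lost the call without replicate 2 of the second line's knockdown (limma adjusted p = 0.0586 and 0.0625), and RPL36A lost it with TPM scaling (0.112).

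The 3 tested variant paralogs moved apart from their parents. RPS27L is the paralog of RPS27 in the small subunit. It had 2.12, 2.55 and 2.63 FPKM in SK-N-SH knockdown libraries, against 14.5, 17.1 and 15.8 FPKM in SK-N-SH control libraries. Its levels in the second line were 18.2, 17.5 and 18.9 FPKM in knockdown libraries, against 2.29, 2.65 and 1.98 FPKM in control libraries. The groups were far apart in each line and opposite in direction, 6.49-fold lower in the SK-N-SH knockdown and 7.91-fold higher in the second line's. The log2 fold changes were -2.29 (SE 0.086, limma adjusted p = 3.84e-10) and 2.54 (SE 0.086, limma adjusted p = 1.43e-10), larger in size than that of any core gene in the same line. RPS27L stood at 0.175% ± 0.0153 of the RPS27 level in SK-N-SH knockdown and 1.08% ± 0.138 in SK-N-SH control, and at 1.38% ± 0.0939 in the second line's knockdown and 0.173% ± 0.0252 in its control (SD, n = 3). The log2 ratio differed by -2.21 and 2.55 (exact permutation p = 0.1 each, the smallest possible). The exons counted for RPS27L span 9127 bases and those for RPS27 span 1035 bases, so the level of the ratio depends on which exons are used. MDM2, the ubiquitin ligase that RPL5, RPL11 and RPS7 can bind, was lower in the SK-N-SH knockdown (log2 fold change -1.38) and higher in the second line's (1.05).

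RPL22L1 and its parent RPL22 moved in opposite directions in both lines. RPL22L1 had 10.6, 9.59 and 10.2 FPKM in SK-N-SH knockdown libraries, against 24.2, 24.1 and 21.6 FPKM in SK-N-SH control libraries. RPL22 had 64.7, 71.4 and 70.1 FPKM in the same knockdown libraries, against 29.9, 28.2 and 30.4 FPKM in the control libraries. The paralog fell while the parent rose, with no overlap for either (log2 fold changes -1.12 and 1.19, limma adjusted p = 1.11e-07 and 1.33e-08). RPL22L1 in the second line had 33.5, 26.9 and 32 FPKM in knockdown libraries, against 8.73, 8.99 and 7.97 FPKM in control libraries, and RPL22 had 30.4, 30.1 and 34.4 FPKM, against 62.3, 70.1 and 62.1 FPKM. Here the paralog rose and the parent fell (log2 fold changes 1.73 and -1.01, limma adjusted p = 2.29e-09 and 5.32e-08). Per length, RPL22L1 came to 14.8% ± 1.48 of RPL22 in SK-N-SH knockdown and 79.1% ± 7.52 in SK-N-SH control. It came to 97.5% ± 11 in the second line's knockdown and 13.2% ± 0.679 in its control (SD, n = 3). The log2 ratio differed by -2.32 in SK-N-SH and 2.74 in the second line (exact permutation p = 0.1 each, the smallest possible). Between the second line's knockdown and the SK-N-SH control, RPL22L1 was higher by 0.38 on the log2 scale (limma adjusted p = 0.00287), and RPL22 had 0.094, which did not pass.

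RPL39L moved with the core majority while its parent RPL39 did not. RPL39L had 26.4, 27.7 and 33.3 FPKM in SK-N-SH knockdown libraries, against 14.9, 13.4 and 11.5 FPKM in SK-N-SH control libraries (log2 fold change 1.08, limma adjusted p = 8.39e-07). In the second line it had 18.6, 17.3 and 16.3 FPKM in knockdown libraries, against 27, 28.1 and 26.6 FPKM in control libraries (log2 fold change -0.62, limma adjusted p = 0.0001). Neither pair of groups overlapped. RPL39, one of the smallest large-subunit proteins at the exit tunnel, had log2 fold changes of 0.058, which did not pass, and 0.33, which passed and was lost under TPM scaling (limma adjusted p = 0.077) and without replicate 1 of the second line's control (0.0729). RPL39L came to 7.41% ± 0.58 of RPL39 in SK-N-SH knockdown and 3.53% ± 0.535 in SK-N-SH control, and to 3.87% ± 0.298 in the second line's knockdown and 7.67% ± 0.825 in its control (SD, n = 3). The log2 ratio differed by 1.02 and -0.95 (exact permutation p = 0.1 each, the smallest possible).

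Among the other paralogs, RPL26L1, nearly identical in protein to RPL26, was set apart by the second line's knockdown. It had 51.5, 54.2 and 49.6 FPKM there, against 27.6, 29 and 25.3 FPKM in the control of the second line, and 28.8, 28.6 and 34 FPKM in SK-N-SH knockdown, against 26.3, 30.2 and 25.9 FPKM in SK-N-SH control. The second line's knockdown was above each of the other groups (log2 fold change 0.90 against its control and 0.89 against the SK-N-SH control, limma adjusted p = 8.65e-07 and 1.75e-05), while the SK-N-SH groups overlapped (log2 fold change 0.14). It came to 212% ± 18.3 of RPL26 in the second line's knockdown and 85.7% ± 2.58 in its control, against 94.5% ± 5.92 in SK-N-SH knockdown and 124% ± 13.7 in SK-N-SH control (SD, n = 3). RPL26 shares 14.3% of its exon bases with another gene on its strand, so the level of this ratio is uncertain. RPL7L1, a nucleolar assembly factor related to RPL7, rose in the SK-N-SH knockdown (log2 fold change 0.58) and fell in the second line's (-0.43), as RPL7 did (0.63 and -0.80). RPL3L had few reads: 11 in all in SK-N-SH knockdown and 39 in SK-N-SH control. It had 13 in the second line's knockdown and 10 in its control. Mean levels were 0.0709 to 0.252 FPKM, where 3 reads in a group correspond to about 0.02 FPKM. The SK-N-SH control libraries, at 0.233, 0.211 and 0.310 FPKM, lay above those of the other groups, on few reads and without a test. RPL3 itself was at 570.3 ± 39 and 352 ± 8.98 FPKM in SK-N-SH knockdown and control (SD, n = 3). RPL10L had 1 read in the SK-N-SH knockdown and 0 in each of the other groups, and a count of 0 allows up to 0.0657 to 0.0728 FPKM over a group of 3 (3 reads, counting error only).

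**Figure D4:**
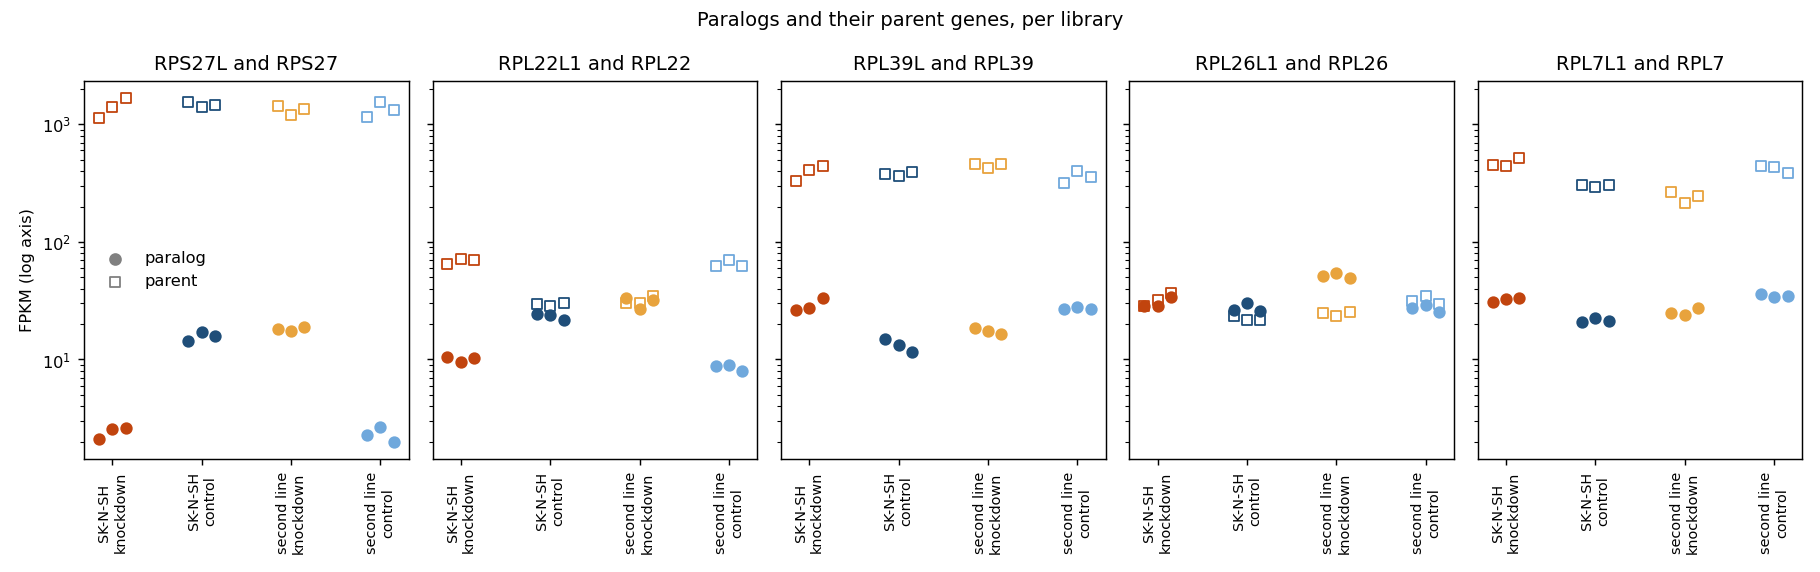
FPKM (log axis) of 5 paralogs (filled circles) and their parent genes (open squares) in each library of the 4 groups. RPS27L and RPL22L1 are low in SK-N-SH knockdown and in the second line's control, RPL39L and RPL7L1 are high there, and RPL26L1 is highest in the second line's knockdown.

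Processed pseudogenes limit how well some core genes can be read, because copies of a ribosomal protein mRNA can differ from it by few bases. The table holds 1149 rows named as ribosomal protein pseudogenes, of which 495 had a read, and together they held 0.150% to 0.343% of the reads in a library. For 8 core genes the pseudogene rows held more than 10% of the joint reads: RPS10 (71.8%), RPL9 (48.1%), RPS28 (27.2%), RPS2 (18.3%), RPL7 (16.6%), RPS7 (14.3%), RPL39 (12.6%) and RPL22 (11.2%). The row RPS28P7 had 1415, 1658 and 1754 FPKM in SK-N-SH knockdown libraries, against 49.3, 46.6 and 46.1 FPKM in SK-N-SH control libraries. Its second line values were 43.9, 26.5 and 33.7 FPKM in knockdown and 1397, 1746 and 1451 FPKM in control libraries. These are the widest gaps of any ribosomal protein row described here (log2 fold changes 5.05 and -5.45, limma adjusted p = 6.33e-11 and 3.01e-11), and the row was chosen after its values were seen. RPS28 itself had 179, 203 and 219 FPKM in SK-N-SH knockdown and 226, 238 and 232 FPKM in SK-N-SH control and passed in neither line. With the pseudogene reads added to the gene, RPS28 was higher in the SK-N-SH knockdown (log2 fold change 0.59, limma adjusted p = 0.000507) and lower in the second line's (-0.73, limma adjusted p = 9.88e-05). RPL9P9 behaved likewise at smaller size (log2 fold changes 2.12 and -2.16), and the log2 fold changes of RPL9 went to 1.18 and -1.26 with those reads, against 0.49 and -0.60 without. RPS2P5, with 88821 reads the fullest of the main pseudogene rows of these 8 genes, moved the other way (log2 fold changes -0.80 and 0.54, limma adjusted p = 6.2e-05 and 0.00133). With the pseudogene reads added, RPS2 kept its calls at smaller size, at 0.35 and -0.57, against 0.59 and -0.79 without. For RPS10 the sign turned in SK-N-SH, to -0.62 (limma adjusted p = 0.000148) with the added reads, against 0.30 without. RPS7 (1.75 and -1.71) and RPL22 (1.12 and -0.998) kept their calls. Whether the reads came from the genes or from the copies cannot be told apart in these counts, and the addition was chosen after the data were seen.

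The core genes are spread over 21 chromosomes, with 12 on chromosome 19, and their fold changes went partly with those of their neighbours. For each core gene, the median log2 fold change of all other tested protein-coding genes within 5 Mb (12 to 198 of them) was set beside its own. Across the 77 genes the 2 quantities correlated with r = 0.70 (Pearson) and rho = 0.65 (Spearman) in SK-N-SH and with r = 0.59 and rho = 0.54 in the second line, as a description over genes that share libraries and partly share neighbours. Without RPS7 the Pearson values were 0.66 and 0.55. RPS7 lies at the end of the short arm of chromosome 2 (ENSG00000171863, chr2:3575205-3580920, plus strand, GRCh38 here and below), and its 12 neighbours had a median of 1.06 in SK-N-SH and -0.72 in the second line. MYCN, on the same arm, was at 1028 ± 49 FPKM in SK-N-SH knockdown and 0.0408 ± 0.0407 FPKM in SK-N-SH control, and was listed at 0 in the second line's knockdown and stood at 1040.4 ± 33.3 FPKM in its control (SD, n = 3). RPS3 (ENSG00000149273, chr11:75399486-75422280, plus strand) had 68 neighbours with medians of 0.73 and -0.69. RPL22, by contrast, sat among 88 neighbours with medians of 0.09 and 0.08 (ENSG00000116251, chr1:6185020-6209389, minus strand). The sign was opposite to that of the neighbours' median for 19 of 77 core genes in SK-N-SH, 9 of them called, and for 25 in the second line, 18 of them called. Of all genes tested, whatever their neighbours, 79.8% were called in SK-N-SH and 80.0% in the second line. How often other genes opposed their neighbours was not counted. RPL10 was among the core genes with the opposite sign, chosen with RPLP2 and RPL26 after their values were seen. It had log2 fold changes of 0.91 and -1.07 beside neighbour medians of -0.32 and 0.72. RPLP2 had 0.56 and -0.45 beside -0.67 and 0.62, and RPL26 0.52 and -0.37 beside -0.40 and 0.28. On either strand, RPL10 shares 55.5% of its exon bases with other annotated genes, RPLP2 12.3% and RPL26 14.3%. Whether strand was used in counting is not known, which limits these 3 examples.

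Of the 10 core genes that were lower in the SK-N-SH knockdown, 9 lie on the long arm of chromosome 19 and the short arm of chromosome 3, which were picked after the values were seen. Of 8 core genes on 19q (RPL13A, RPL18, RPL28, RPS16, RPS19 and RPS9 among them), 6 were lower and 0 higher in SK-N-SH, and in the second line 3 were higher and 0 lower. The other 473 tested protein-coding genes of that arm had median log2 fold changes of -0.46 and 0.40, with 67.2% lower and 18.0% higher in SK-N-SH, and 64.9% higher and 19.5% lower in the second line. Of 5 core genes on 3p (RPL14, RPL15, RPL29, RPL32 and RPSA), 3 were lower and 0 higher in SK-N-SH, and 3 were higher and 0 lower in the second line. The other 328 genes of the arm had medians of -0.50 and 0.54, with 67.7% lower and 18.3% higher in SK-N-SH, and 70.1% higher and 18.9% lower in the second line. The core counts on both arms are small and near these shares in SK-N-SH, as is that of 3p in the second line, while on 19q fewer core genes than other genes were higher in the second line by share. On the opposite arms the picture was the majority's. On 19p, 3 of 4 core genes were higher in the SK-N-SH knockdown and 3 lower in the second line's, with medians of 0.07 and 0.02 for 414 other genes, of which 44.7% were higher in the SK-N-SH knockdown and 39.6% lower in the second line's. On 3q, both core genes were higher in the SK-N-SH knockdown and lower in the second line's, with medians of 0.13 and -0.03 for 335 other genes, of which 48.4% were higher in the SK-N-SH knockdown and 43.9% lower in the second line's. Copy number was not measured in these libraries.

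**Figure D5:**
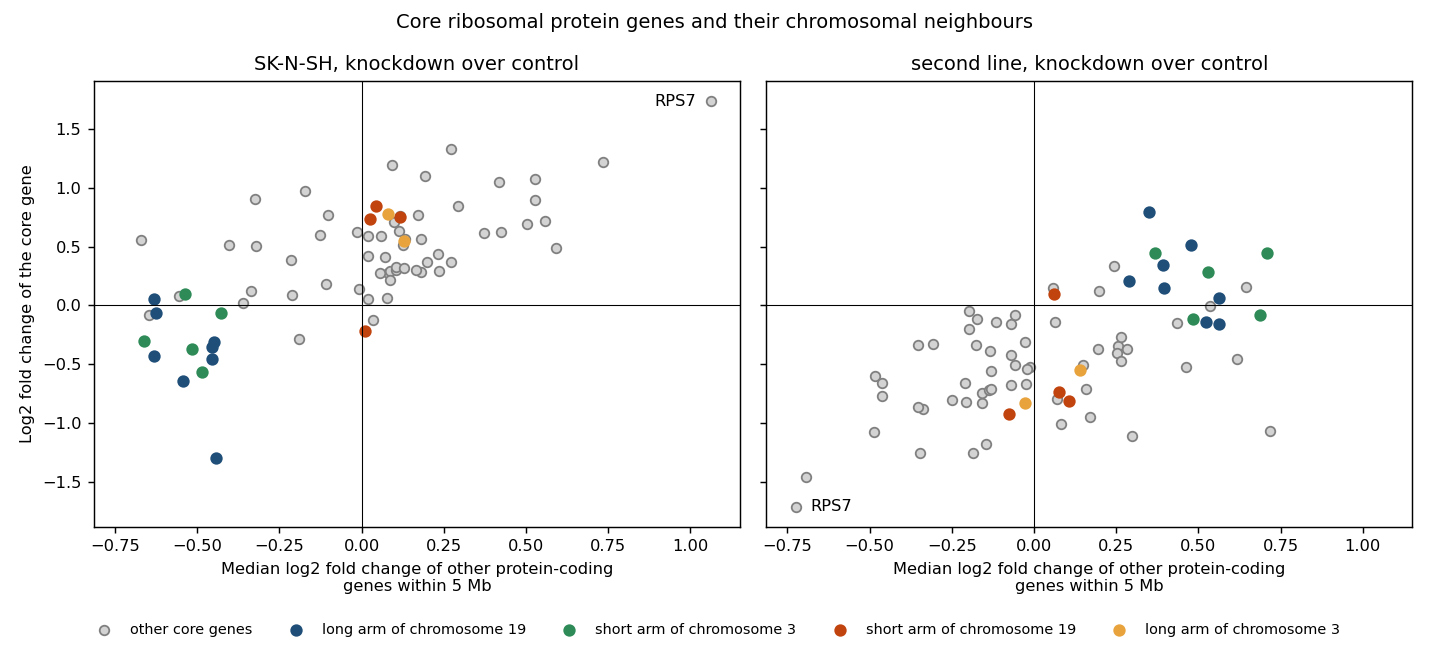
Log2 fold change of each of the 77 core genes (vertical) against the median log2 fold change of the other tested protein-coding genes within 5 Mb (horizontal), knockdown over control, in SK-N-SH (left) and in the second line (right). Colours mark the arms of chromosomes 19 and 3; the points of 19q and 3p lie left of 0 in SK-N-SH and right of 0 in the second line, and RPS7 lies at the far end in each panel.

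Genes of the same pathway outside the naming rule were read from lists drawn up with earlier results of these data known. Of 4 ribosomal proteins with other names, FAU (log2 fold change 0.86) and RACK1 (0.40) were higher in the SK-N-SH knockdown and lower in the second line's (-0.56 and -0.71). RPL36AL, a paralog of RPL36A, passed in neither line (0.11 and 0.028). Of 15 other tested genes with TOP mRNAs, which encode translation factors and other proteins, 10 were higher and 2 lower in the SK-N-SH knockdown. Of all genes tested, 40.7% were higher and 39.0% lower, and the median log2 fold change of the 15 was 0.25. In the second line 12 were lower and 2 higher, with a median of -0.43, where 40.2% of all genes tested were lower and 39.9% higher. The largest rises in SK-N-SH were NPM1, a nucleolar chaperone of ribosome assembly, at 467 ± 33.4 FPKM in SK-N-SH knockdown and 207 ± 6.61 FPKM in SK-N-SH control, and HNRNPA1, a splicing factor, at 548 ± 19.3 and 267 ± 28.1 FPKM (SD, n = 3). NPM1 in the second line was at 209 ± 19.8 FPKM in knockdown and 444 ± 22.9 FPKM in control, and HNRNPA1 at 202 ± 20.03 and 521 ± 19 FPKM (SD, n = 3). The 2 exceptions, TPT1 and EIF2S3, went the other way in both lines (log2 fold changes -0.91 and -0.54 in SK-N-SH, 0.86 and 0.35 in the second line). EEF1G was listed at 0 in every library and was not tested.

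Of 10 escorts and assembly factors, which carry single ribosomal proteins or ripening subunits, 7 were higher and 2 lower in the SK-N-SH knockdown, and 4 were higher and 5 lower in the second line's. The second line's counts are near the shares of all genes tested (39.9% higher and 40.2% lower), and those in SK-N-SH stand beside 40.7% higher and 39.0% lower. PRMT3, which methylates RPS2, BCCIP, an escort of RPL23, and NMD3, the export adaptor of the large subunit, were the largest rises in SK-N-SH (log2 fold changes 1.04, 1.02 and 0.98) and fell in the second line (-0.79, -0.67 and -0.78). Here too the second line's knockdown and the SK-N-SH control differed, with 9 of 10 higher and 0 lower in the second line's knockdown, where 26.9% of all genes tested were higher and 17.2% lower. Other settings are not given for the 9. Of 77 core genes, 17 were lower in that knockdown, beside the same 17.2%, and this count depended on the scaling and on single libraries. Of the regulators, LARP1 was at 68.3 ± 1.92 FPKM in SK-N-SH knockdown and 28.8 ± 0.175 FPKM in SK-N-SH control, and at 33.6 ± 1.34 FPKM in the second line's knockdown and 67.8 ± 1.26 FPKM in its control (SD, n = 3). MYC, a transcription factor that drives ribosomal protein genes, was at 0.257 ± 0.0402 FPKM in SK-N-SH knockdown and 2.8 ± 0.263 FPKM in SK-N-SH control, and at 3.24 ± 0.37 FPKM in the second line's knockdown and 0.223 ± 0.0879 FPKM in its control (SD, n = 3). It was thus low where MYCN was high. The part of MYC, MYCN or LARP1 in the ribosomal protein levels was not tested.

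Core ribosomal protein genes also share a gene structure. Of 77, 28 (36.4%) held at least 1 annotated small nucleolar RNA gene, 60 in all, against 246 of 19867 other protein-coding genes (1.24%). Their median span was 5383 bases, against 27302 bases for the other protein-coding genes. Exon bases were shared with another annotated gene on the same strand by 35 of 77. The shared part ran from 0.894% in RPL28 to 39.4% in RPS10, with 25.6% in RPS2 and 17.3% in RPL13A. It bears on the levels most where it is large. The same share among other genes was not counted.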

How the data were processed

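The 12 RNA libraries came from 3 µg of total RNA each and a NEBNext Ultra kit, per the labels' protocols. HISAT2 2.0.5 and featureCounts 1.5.0-p3 are the tools named, per the submitters' processing notes. These notes also name the mouse build mm10, but the deposited genes are human and all 58735 have the coordinates of GENCODE 29, so GRCh38 is used here. The authors deposited FPKM values per gene and library. The deposited base coordinates and gene lengths are other columns of that table, and 58724 lengths equal the union of exons. The sources used here do not say whether strand was used in counting, and a gene cannot be told apart from an antisense partner.

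FPKM times length was a whole number of reads, within 0.05, for 100% of values. The authors' denominator was proportional to median-of-ratios size factors. Relative to its geometric mean over libraries, the ratio of that denominator to the library total ran from 0.913 to 1.06. The totals were 15425460 to 19249018 reads, and levels are relative to the authors' scaling. Shares use the recovered reads. Floors of 3 reads cover counting error only.

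Genes with a mean of at least 0.5 FPKM over the 12 libraries were tested (15856) with limma 3.58.1 (R 4.3.3) after taking log2(FPKM + 1). One model held the 4 group means, moderated by empirical Bayes with a trend on level, and Benjamini-Hochberg adjustment within each comparison at 0.05. This scale understates changes of low genes. A fold given in the text divides mean FPKM values, and SD is over 3 libraries. Single values were compared by exact two-sided permutation tests, 4 comparisons per measure, where p cannot fall below 0.1. Benjamini-Hochberg values over such a family cannot fall below it either. Python 3.11.15, scipy 1.17.1, numpy 2.4.6 and pandas 2.3.3 were used. The steps were tested on simulated data. For limma, that simulation drew each gene independently and changed few genes. It does not cover data in which most genes are called and core genes move together by library.

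Members, lists and tests were chosen with earlier results of these data known. Named were the paralogs and their parents, proteins of stated roles, the 5 core genes with the largest rises and falls per comparison, the 5 highest and 5 lowest core genes, and up to 3 genes per list, except a few genes left out of the text and figures. Alternatives were another pseudocount, other filters, other scalings (TPM, total reads, non-member median), voom with TMM on recovered reads, only the 2 groups compared, protein-coding genes only, a replicate block and leaving out each library. Over all genes tested, same-numbered libraries deviated together little or not at all (r from -0.0751 to 0.102). With few libraries a group this cannot exclude that the numbers pair them, and a fit with the replicate block is given below. Promoter sequences came from RefSeq tables on GRCh38.p14, and those of chromosome 8 genes are not printed.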

Additional observations from a re-analysis of the deposited data

Results flagged for a closer look

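For 32 named genes the knockdown effect differed between the 2 labelled lines by limma's test of the difference itself (adjusted p under 0.05). Values are log2 effects in the second line minus those in SK-N-SH. In a table where 84.9% of all genes tested pass the same test, this is the common case. The knockdown label of SK-N-SH goes against its TSPYL5 level, and the groups cross by cell state markers. The part of either in these differences was not tested.

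Among the variant and other paralogs the difference was 4.84 for RPS27L, 2.85 for RPL22L1, 0.75 for RPL26L1, -1.01 for RPL7L1 and -1.70 for RPL39L. The core genes with a higher effect in the second line were RPL28 (2.09), RPS19 (1.16), RPL15 (1.01), RPL29 (0.75), RPSA (0.66), RPL13A (0.49) and RPS4X (0.43). Those with the lowest effects there were RPS7 (-3.45), RPS3 (-2.68), RPS15A (-2.51), RPS29 (-2.33), RPL22 (-2.20) and RPL10 (-1.97). They were followed by RPL3 (-1.47), RPS12 (-1.44), RPL7 (-1.43), RPS2 (-1.39), RPS27A (-1.38), RPL35A (-1.10), RPLP2 (-1.01) and RPLP0 (-0.999). The smallest of them were RPL11 (-0.92), RPL26 (-0.89), RPL10A (-0.67), RPL5 (-0.56), RPL41 (-0.50) and RPS10 (-0.46).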

How the results depend on the processing

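In SK-N-SH, 47 to 54 core genes were higher over the settings tried and 46 to 52 when a library was left out, and 10 to 11 and 9 to 11 were lower. In the second line, 49 to 60 and 48 to 50 were lower. It had 4 higher core genes with total-read scaling, and its core median moved to -0.59 with TPM and -0.62 with total-read scaling, which shift the median of all genes by -0.12 and -0.14. Leaving out a library gave 6 to 10 higher. The SK-N-SH knockdown had 0 core calls against the second line's control under every setting tried. The second line's knockdown against the SK-N-SH control depended most on the setting. It gave 0 higher and 58 lower with TPM, 47 lower with total reads, 36 lower with voom, 7 lower with no filter on low values and 2 higher with only the 2 groups compared. With TPM 16.1% of all genes were higher and 24.7% lower, and 23.1% were lower with total reads and 21.1% with voom. With no filter 2799 of 35897 genes were lower, and with only the 2 groups compared 3468 of 15856 were higher. The core median of this comparison was -0.31 with TPM and -0.27 with total reads, and leaving out a library gave 1 to 2 higher and 4 to 29 lower. The cause was not tested.

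Of 2436 repeats over 106 results on named genes, 25 lost a call, 25 gained one and 19 changed sign, 1 of them with a call. That one, RPS10 in SK-N-SH, went to -0.62 with pseudogene reads added, an alternative chosen after the data were seen. The others were near 0. In the second line RPL13A went to -0.076 with TPM and -0.098 with total reads, RPL36A to -0.0054 and RPS4X to -0.013 with total reads. RPL22 between the second line's knockdown and the SK-N-SH control went to -0.049 and -0.011. The ratio of RPS27L to RPS27 between the SK-N-SH knockdown and the second line's control went to 0.018 with a pseudocount of 0.1. When a library was left out, ranges crossed 0 for RPL13A (-0.014 to 0.13), RPS26 (-0.12 to 0.038) and RPS27 (-0.11 to 0.10) in the second line. In SK-N-SH they did so for RPL39 (-0.034 to 0.18), RPLP1 (-0.036 to 0.16) and RPS27 (-0.22 to 0.059). Between the SK-N-SH knockdown and the second line's control they did so for RPL39L (-0.011 to 0.15), RPS27L (-0.017 to 0.13), RPS27 (-0.074 to 0.20) and the log2 ratios of RPL39L to RPL39 (-0.12 to 0.032) and RPS27L to RPS27 (-0.079 to 0.10). Between the second line's knockdown and the SK-N-SH control the ratio of RPL39L to RPL39 did so (-0.0043 to 0.20).

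With the replicate block, 51 core genes were higher and 10 lower in SK-N-SH, 7 and 50 in the second line, and 1 and 12 between the second line's knockdown and the SK-N-SH control. Of 15856 genes tested with the block, 6409 were higher and 6160 lower in SK-N-SH, and 6281 and 6338 in the second line. Between the second line's knockdown and the SK-N-SH control, 4131 were higher and 2621 lower. Among named genes the block moved the call of RPL36A in SK-N-SH (adjusted p = 0.0436 in limma). At 15425460 reads or more, depth limits RPL3L and RPL10L most.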
